A study of Mus musculus with 3 samples.

Results

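The genes described here were grouped around the signal of Toll-like receptor 4 from bacterial lipid to kinase, and some restrain it or serve other receptors. They comprise co-receptors, adaptors, IRAK and TRAF proteins, the TAK1 complex, IκB kinases, ubiquitin ligases, RIP kinases and the BCL10-MALT1 pair. They were chosen by name as 42 gene symbols, each matched to 1 gene identifier, among 55536 annotated genes in the deposited tables. RNA bound to chromatin was sequenced, after depletion of ribosomal RNA, from macrophages grown from the marrow of C57BL/6J mice and given Lipid A, the part of lipopolysaccharide that Toll-like receptor 4 recognises, at 100 ng/ml for 40 min. All 3 libraries belong to this 1 group, and no genetic change is named for it. The RNA input was 1 µg for replicate 1, 250 ng for replicate 2 and 500 ng for replicate 3. The replicates are separate biosamples that cite 1 donor entry, so p-values measure the spread between these libraries only. The labels do not give the sex or age of the mice. Untreated cells, other times and other cell fractions were not analysed here, so each value is a level at 40 min and not a response to Lipid A.

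Lipopolysaccharide is carried by LBP to CD14, which passes it to Ly96 (MD2) bound to Toll-like receptor 4. At the plasma membrane Tirap brings in Myd88, which gathers the IRAK kinases and Traf6, and the ubiquitin chains built there recruit the TAK1 complex and the IκB kinase complex, which frees NF-κB. From endosomes Ticam2 and Ticam1 engage Traf3, Tbk1 and Ikbke, kinases of the interferon regulatory factor IRF3, while Ripk1, the cIAP ligases and the linear ubiquitin ligase tune the outcome between NF-κB activation and cell death.

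Total expected counts per library ranged from 12699813 to 18280033, and the 42 genes took 0.854%, 0.607% and 0.703% of them in replicates 1, 2 and 3. The macrophage label was checked against marker genes, among them Csf1r, Adgre1 and Ptprc at a mean TPM (a level per transcript length and library size) of 203, 69.9 and 329. Of 51 markers of other blood and stromal cells 42 were below a mean TPM of 1. The others were Cd4 and Cd5 of T cells, Ccr9 of dendritic cells, Alas2 of erythroid cells, all 4 megakaryocyte markers (Pf4, Itga2b, Gp9 and Treml1, 1.61 to 8.67) and Vwf of endothelium at 49.3. Cd3d and Cd3e were at 0 in every library, as was Hbb-bs, and the endothelial list held no other gene at a mean TPM of 1. Summed TPM of the megakaryocyte list was 11.7, 22 and 22.5 in replicates 1, 2 and 3, and its part in the levels below was not tested. In such bulk libraries fewer cells of a type and less RNA per cell cannot be told apart.

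Promoter sequence is shown for a pair of kinases and a pair of cIAP ligases in which 1 paralog stood far above the other. It is also shown for Tank and Bcl10, at a mean TPM of 255 and 29.6, whose windows hold a κB motif. RefSeq windows on GRCm38.p6 (the mm10 assembly) run from 250 bases before to 50 after an annotated start, 300 in all, and the window nearest the start of the most abundant protein-coding isoform is printed 5′ to 3′ on the gene's own strand. Ikbke (ENSMUSG00000042349.13, chr1:131254343-131279606, minus strand) has its window at chr1:131279514-131279813, and Tbk1 (ENSMUSG00000020115.3, chr10:121546455-121586787, minus strand) at chr10:121586745-121587044. Birc3 (ENSMUSG00000032000.17, chr9:7848699-7873186) and Birc2 (ENSMUSG00000057367.12, chr9:7818227-7837064) lie side by side on the minus strand, with windows at chr9:7873121-7873420 and chr9:7837008-7837307. In these 4 sequences capitals mark CpG dinucleotides.
Ikbke: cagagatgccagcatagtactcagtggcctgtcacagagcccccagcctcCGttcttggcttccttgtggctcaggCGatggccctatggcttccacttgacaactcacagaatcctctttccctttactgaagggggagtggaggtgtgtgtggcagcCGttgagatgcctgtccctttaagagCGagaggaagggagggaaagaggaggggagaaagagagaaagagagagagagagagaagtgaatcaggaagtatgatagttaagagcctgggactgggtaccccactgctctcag
Tbk1: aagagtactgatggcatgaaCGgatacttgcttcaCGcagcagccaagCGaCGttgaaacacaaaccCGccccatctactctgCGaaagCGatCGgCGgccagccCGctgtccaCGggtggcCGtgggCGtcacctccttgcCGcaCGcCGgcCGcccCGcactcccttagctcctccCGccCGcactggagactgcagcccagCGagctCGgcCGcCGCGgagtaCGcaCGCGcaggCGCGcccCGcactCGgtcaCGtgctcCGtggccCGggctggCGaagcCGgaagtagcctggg
Birc3: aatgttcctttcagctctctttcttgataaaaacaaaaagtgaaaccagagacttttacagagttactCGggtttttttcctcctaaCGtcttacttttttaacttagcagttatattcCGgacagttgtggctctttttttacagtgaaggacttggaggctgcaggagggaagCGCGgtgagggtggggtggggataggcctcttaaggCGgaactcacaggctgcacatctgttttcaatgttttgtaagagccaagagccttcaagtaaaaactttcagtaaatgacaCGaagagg
Birc2: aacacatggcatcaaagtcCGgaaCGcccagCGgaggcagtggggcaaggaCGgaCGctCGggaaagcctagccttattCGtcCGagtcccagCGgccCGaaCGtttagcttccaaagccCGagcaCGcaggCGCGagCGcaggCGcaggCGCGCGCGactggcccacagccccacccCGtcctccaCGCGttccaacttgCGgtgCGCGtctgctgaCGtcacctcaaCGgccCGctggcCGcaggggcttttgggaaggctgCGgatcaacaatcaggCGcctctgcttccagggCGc

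In these pairs, picked for display, the abundant paralog had the window with fewer CpG dinucleotides: 4 in Ikbke against 37 in Tbk1, and 7 in Birc3 against 34 in Birc2. The Birc3 window lies 146 bases from the start of its leading protein-coding isoform. Over all 32851 RefSeq windows the median was 7 CpG, with the middle of the distribution between 3 and 20. Traf1 and Traf2 had 4 and 28, but the nearest Traf1 window lies 3636 bases from the start of its leading coding isoform. Over the 13 pairs with a window for each gene, the gene with the higher TPM had fewer CpG in 7 and more in 6. Tab2 (44) over Tab3 (30) and Peli1 (20) over Peli3 (13) were among the 6. The nearest Peli1 window, which enters the pairs with Peli2 and Peli3, lies 44145 bases from the start of its leading coding isoform. CpG number did not order the members as a whole: the 17 called higher with a window (the call is defined below) ranged from 4 to 44 CpG with a median of 21, and the 12 in neither class from 10 to 59 with a median of 19.5.

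Windows were found for 32 of the 42 members, in 46 windows. The κB consensus, searched by its name on both strands, was found in windows of Bcl10, Irak1, Map3k7, Tank and Traf3. These were 9 of 46 member windows (19.6%), several of them of Tank, against 8.46% of all windows. Among members with a window a match did not follow the level. Traf3 had one at a mean TPM of 6.19, and no window of Ikbke, Cflar, Birc3, Pik3ap1, Irak2 or Tbk1 did. Malt1 and Cd14, at a mean TPM of 614 and 208, were among the 10 members without a window. The GC box (GGGCGG, both strands) was found in 71.7% of member windows and 35.7% of all, the AP-1 motif (TGANTCA) in 13% and 7.81%, and TATAAA in 8.7% and 13.6%. The motifs were searched separately, so a match of 1 may overlap a match of another, and a match describes letters and shows no binding. In the next pair of windows capitals mark the κB match, whose first base is at position -127 from the start in Tank (chr2:61592902-61593201, plus strand) and at position -241 in Bcl10 (chr3:145924012-145924311, plus strand).
Tank: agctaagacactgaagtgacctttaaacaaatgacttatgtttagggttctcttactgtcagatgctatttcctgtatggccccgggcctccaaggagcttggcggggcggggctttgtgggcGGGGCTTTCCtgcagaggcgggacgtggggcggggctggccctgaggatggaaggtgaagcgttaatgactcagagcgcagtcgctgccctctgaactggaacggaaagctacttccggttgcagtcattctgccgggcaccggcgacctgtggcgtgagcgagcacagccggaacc
Bcl10: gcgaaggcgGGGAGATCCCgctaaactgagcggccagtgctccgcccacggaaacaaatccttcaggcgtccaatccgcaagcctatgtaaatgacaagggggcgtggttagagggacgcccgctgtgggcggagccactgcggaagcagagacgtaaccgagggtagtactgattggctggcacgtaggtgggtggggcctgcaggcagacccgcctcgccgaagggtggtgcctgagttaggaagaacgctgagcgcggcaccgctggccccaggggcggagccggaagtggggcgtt

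To place each gene among the expressed genes of the same library, log2(TPM + 0.1) was set against a reference gene, the median of the 8765 nuclear protein-coding genes whose mean TPM was 1 or more. That reference lay at a TPM of 7.56, 6.64 and 6.56 in replicates 1, 2 and 3. A gene is called higher or lower where limma's treat method put its level more than 2-fold above or below the reference, with a Benjamini-Hochberg adjusted p under 0.05 over all 18449 genes tested. On this scale 22 of the 42 members were called higher and 4 lower, with 16 in neither class. Of all genes tested 15.1% were called higher and 52.6% lower, a background that holds many weakly expressed genes. Among the 8765 expressed protein-coding genes 27.2% were higher and 22.2% lower. The median member level was 1.44 log2 units above the reference, against -1.75 over all genes tested.

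**Figure D1:**
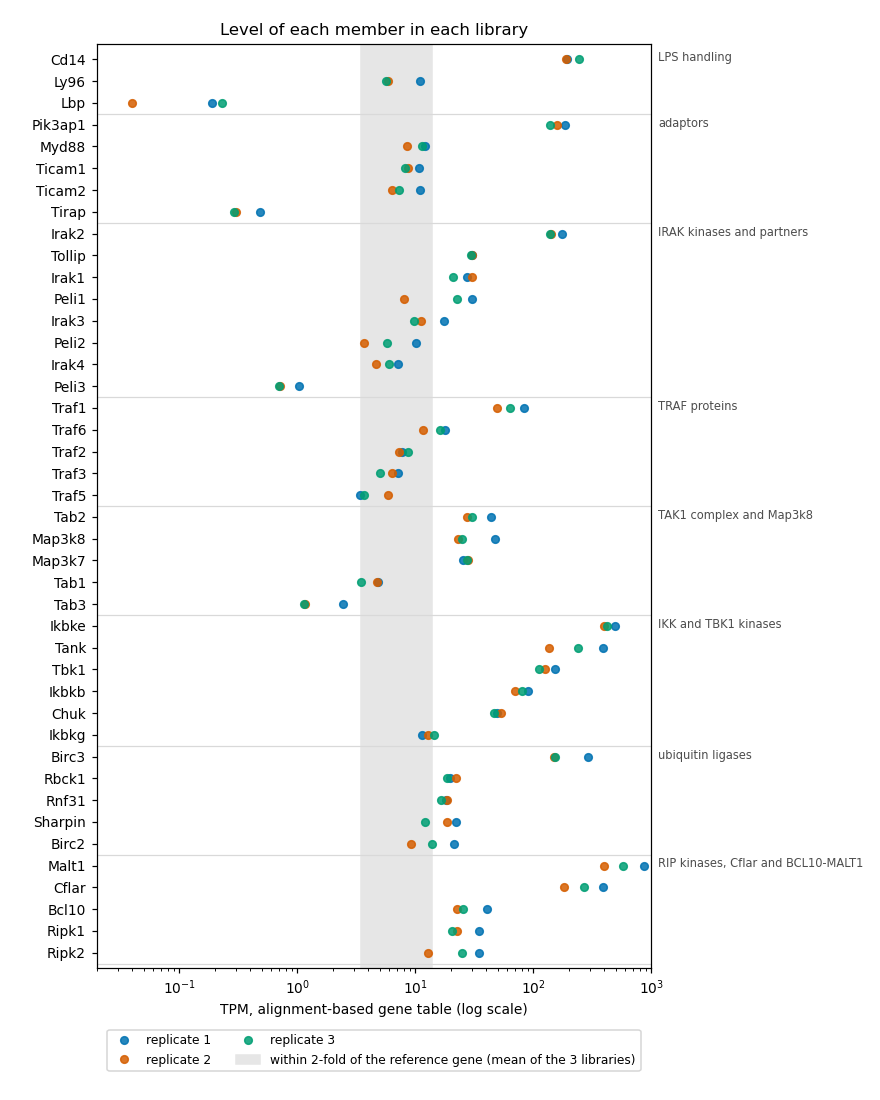
Level of the 42 members in each library, as TPM on a log axis, grouped by role; points are the 3 libraries and the grey band marks 2-fold around the reference gene. Malt1, Ikbke, Cflar, Tank, Cd14, Birc3, Pik3ap1, Irak2 and Tbk1 lie at a mean TPM over 100, and Peli3, Tirap and Lbp below 1.

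At the receptor the 3 handlers of lipopolysaccharide spanned nearly the whole range. Cd14, which encodes the co-receptor that hands lipopolysaccharide to the receptor complex, had a TPM of 192 in replicate 1, 189 in replicate 2 and 242 in replicate 3, the order in which values are given throughout. Ly96, the MD2 subunit that holds Lipid A, had 10.9, 5.87 and 5.68. Cd14 lay above Ly96 in every library, with no overlap. The Cd14 level lay 4.88 ± 0.15 (SE) above the reference in log2 units (adjusted p = 4.4e-05, limma treat; above it in 3 of 3 libraries), and Ly96 was at the reference (0.05 ± 0.19). Within libraries Cd14 exceeded Ly96 by 4.83 ± 0.64 (SD, n = 3) in log2(TPM + 0.1), and by 3.20 in the alignment-free table. Lbp, the secreted carrier made mainly by liver, rested on 5, 1 and 1 expected counts and was called lower.

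Adaptor genes stood near the reference apart from a pair at the extremes. Pik3ap1 (BCAP), which links Toll-like receptors to phosphoinositide 3-kinase, had a TPM of 185, 158 and 140 and was called higher at 4.51 ± 0.12 (SE; adjusted p = 3.7e-05, limma treat; above it in 3 of 3 libraries). Myd88, the adaptor of the plasma membrane arm, had 12, 8.45 and 11.5, and Ticam1 (TRIF), the adaptor of the endosomal arm, 10.7, 8.76 and 8.19. The TPM values of these 2 adaptors overlapped between libraries, and their within-library difference of 0.20 ± 0.27 (SD, n = 3) in log2(TPM + 0.1) was inside its own spread. Ticam2 (TRAM), the bridging adaptor of Ticam1, had 11, 6.36 and 7.24.

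Tirap (MAL), the bridging adaptor of Myd88, had a TPM of 0.48, 0.3 and 0.29 on 25, 30 and 27 expected counts and was called lower (-3.96 ± 0.27, SE; adjusted p = 0.0003, limma treat; below it in 3 of 3 libraries). The level of Tirap depended on the deposited quantification. In the alignment-free table, where reads were assigned to transcripts without alignment, its mean TPM was 3.89 against 0.357 in the alignment-based table. There the level was -0.91 and the call was lost (adjusted p = 0.92, limma treat). Tirap minus Ticam2, the 2 bridging adaptors, was -4.17 ± 0.13 (SD, n = 3) in log2(TPM + 0.1) in the alignment-based table, -1.06 in the alignment-free table and -2.85 over protein-coding isoforms.

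Among the IRAK genes the order of mean TPM over every isoform was Irak2, Irak1, Irak3 and Irak4. Over protein-coding isoforms the mean of Irak4 (4.69) lay above that of Irak3 (4.02), with Irak4 above Irak3 in replicates 2 and 3 and below it in replicate 1. Irak2, the kinase that sustains late signalling, had a TPM of 175, 141 and 138. Irak1, the kinase that is phosphorylated early, had 27.2, 30.3 and 20.9. Irak2 was higher in each library, by 2.54 ± 0.29 (SD, n = 3) in log2(TPM + 0.1). Irak4, the kinase that starts the cascade, had the lowest TPM of the 4 at 7.15, 4.65 and 6. Irak4 minus Irak1 was -2.13 ± 0.48 (SD, n = 3) in log2(TPM + 0.1). Irak3 (IRAK-M), which restrains the pathway, had 17.4, 11.2 and 9.85. It differed from Irak1 by -0.65, -1.43 and -1.08 in log2(TPM + 0.1), lower in every library. Irak2 and Irak1 were called higher and Irak3 and Irak4 were in neither class.

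Tollip, an IRAK-binding brake, had nearly 1 level in the 3 libraries (TPM of 30.5, 30.4 and 29.9) and was called higher. The Pellino ligases, which attach ubiquitin to IRAK proteins, differed from each other and between libraries. Peli1 had a TPM of 30.5, 8.06 and 22.4, Peli2 10.2, 3.67 and 5.82, and Peli3 1.04, 0.72 and 0.7. Peli1 and Peli2 were lowest in replicate 2. In log2(TPM + 0.1) Peli1 exceeded Peli2 by 1.54 ± 0.41 and Peli3 by 4.29 ± 0.85 (SD, n = 3), above both in every library. Peli1 was not called with the 3 libraries (1.34 ± 0.35, SE; adjusted p = 0.251, limma treat), but without replicate 2 its level was 1.88 and it was called higher (adjusted p = 0.0029, limma treat). With the 3 libraries it was called higher in the alignment-free table (1.94, adjusted p = 0.028, limma treat), without the filter on low values (1.34, adjusted p = 0.035, limma treat) and by edgeR on counts (1.53, adjusted p = 0.035). Peli3 was called lower at -2.95 ± 0.22 (SE).

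Of 5 TRAF genes only Traf1 was called higher, beside 15.1% of all genes tested and 27.2% of expressed protein-coding genes. Traf1, the member without a RING domain and itself a known NF-κB target, had a TPM of 84.3, 49.4 and 63.8, while Traf2, its partner at TNF receptors, had 7.76, 7.34 and 8.72. The within-library difference was 3.00 ± 0.37 (SD, n = 3) in log2(TPM + 0.1). Traf6, the ligase that acts downstream of Myd88, had 17.9, 11.7 and 16.1, and Traf3, which acts downstream of Ticam1, 7.21, 6.39 and 4.98. Traf6 lay above Traf3 in each library. Traf3 minus Traf6 averaged -1.28 in log2(TPM + 0.1) in the alignment-based table and -0.20 in the alignment-free table.

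Traf5 was the member on which the deposited tables differed most in direction. Its alignment-based TPM was 3.4, 5.9 and 3.7, with a level of -0.70 ± 0.22 (SE) and no call. In the alignment-free table its mean TPM was 45.4, the level 2.64, and it was called higher (adjusted p = 0.00042, limma treat). The difference sat in 1 isoform: Traf5-203, annotated as retained intron, had a mean TPM of 1.09 in the alignment-based and 41.8 in the alignment-free table. Traf5-201, the leading protein-coding isoform, had 1.07 and 1.53. Traf5 minus Traf6 was -1.81 ± 0.74 (SD, n = 3) in log2(TPM + 0.1) by alignment and 1.47 without it. For 36 of 42 members the alignment-free TPM was the larger. The median ratio was 1.32 over the 39 members whose mean TPM was 1 or more, against 1.4 over 8765 expressed protein-coding genes. A ratio above 5 was found for Lbp (10.3), Tirap (10.9) and Traf5 (10.5).

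**Figure D2:**
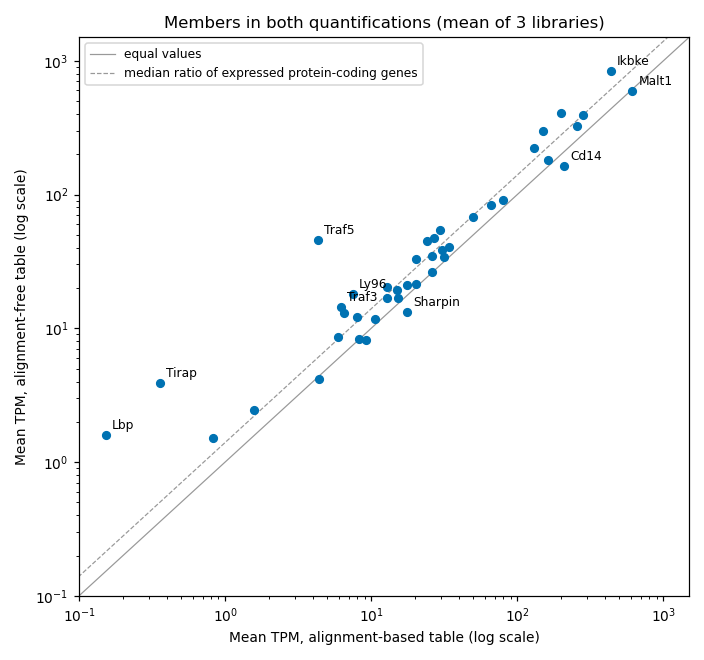
Mean TPM of each member in the alignment-based table (x, log axis) and in the alignment-free table (y, log axis), 3 libraries each; the solid line marks equal values and the dashed line the median ratio of 1.4 over expressed protein-coding genes. Traf5, Tirap and Lbp lie far above both lines, while Cd14, Malt1 and Sharpin lie below the solid line.

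The TAK1 complex was uneven across its subunits. Map3k7 (TAK1), the kinase itself, had a TPM of 25.5, 27.8 and 27.3. Tab2, the subunit that binds ubiquitin chains, had 44.2, 27.2 and 30.3, and its paralog Tab3 2.45, 1.16 and 1.14. Tab2 exceeded Tab3 by 4.39 ± 0.25 (SD, n = 3) in log2(TPM + 0.1), with values of 4.12, 4.44 and 4.61 in the 3 libraries. Tab1, the activating subunit, had 4.87, 4.73 and 3.49 and was in neither class, with Tab2 above it by 2.91 ± 0.36 (SD, n = 3) in log2(TPM + 0.1). Map3k7 and Tab2 were called higher and Tab3 lower.

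Map3k8 (Tpl2), the kinase that feeds the ERK arm once IκB kinase has acted, had a TPM of 47.1, 22.9 and 25, highest in replicate 1. It was called higher at 2.10 ± 0.20 (SE). It lay above Map3k7 in replicate 1 and below it in replicates 2 and 3 (0.88, -0.28 and -0.13 in log2(TPM + 0.1)), so these 2 kinases did not differ beyond the spread. Neither Map3k7 nor Map3k8 was called higher when protein-coding isoforms alone were counted, at levels of 0.88 and 0.92.

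The IKK and TBK1 group held the highest median of the 8 roles, a TPM of 105, and 5 of its 6 genes were called higher, beside 15.1% of all genes tested and 27.2% of expressed protein-coding genes. Ikbke (IKKε), the inducible relative of Tbk1, had a TPM of 492, 400 and 419. Tbk1, the kinase that phosphorylates IRF3, had 152, 126 and 113. The values did not overlap, and Ikbke exceeded Tbk1 by 1.69, 1.66 and 1.90 in log2(TPM + 0.1), or 1.75 ± 0.13 (SD, n = 3). Ikbke was called at 5.96 ± 0.13 (SE; adjusted p = 3.6e-05) and Tbk1 at 4.21 ± 0.12 (SE; adjusted p = 4.1e-05), by limma treat, each in 3 of 3 libraries. Over protein-coding isoforms alone the difference was 0.95, and it was 1.94 over the alignment-free table.

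Tank, the scaffold that binds Tbk1 and Ikbke, had a TPM of 390, 136 and 238, highest in replicate 1 and lowest in replicate 2. It was called higher at 5.06 ± 0.27 (SE). In the IκB kinase complex that activates NF-κB, Ikbkb (IKKβ) had 90.4, 70.3 and 80.3 and Chuk (IKKα) 49.6, 53 and 46.3. Ikbkb was above Chuk in every library, and Chuk minus Ikbkb was -0.69 ± 0.25 (SD, n = 3) in log2(TPM + 0.1). That order was not held by protein-coding isoforms, where the same difference was 0.05. Ikbkg (NEMO), the regulatory subunit, had 11.4, 12.9 and 14.4 and was in neither class, but was called higher in the alignment-free table (adjusted p = 0.012, limma treat). Ikbkg minus Ikbkb was -2.98, -2.44 and -2.47 in log2(TPM + 0.1) when every isoform was counted, and -0.48 on average over protein-coding isoforms.

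Among ubiquitin ligases Birc3 stood apart. Birc3 (cIAP2), an NF-κB target that ubiquitinates Ripk1, had a TPM of 290, 150 and 153. Its paralog Birc2 (cIAP1) had 21.4, 9.26 and 14. The paralogs did not overlap, and Birc3 was higher by 3.76, 4.01 and 3.45 in log2(TPM + 0.1), or 3.74 ± 0.28 (SD, n = 3). Birc3 was called at 4.75 ± 0.19 (SE; adjusted p = 7.6e-05, limma treat; above it in 3 of 3 libraries) and Birc2 was in neither class.

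The 3 subunits of the linear ubiquitin ligase had similar levels. Rnf31 (HOIP), its catalytic subunit, had a TPM of 18.1, 18.7 and 16.4, Rbck1 (HOIL-1) 19.7, 22.1 and 18.7, and Sharpin 22.2, 18.5 and 12.1. Within libraries Sharpin and Rnf31 differed by -0.05 ± 0.37 (SD, n = 3) and Rbck1 and Rnf31 by 0.18 ± 0.06 in log2(TPM + 0.1). Rbck1 and Rnf31 were called higher and Sharpin was not (adjusted p = 0.103, limma treat). Sharpin was called without replicate 3 (level 1.52, adjusted p = 0.046, limma treat), and the Rnf31 call was lost without replicate 2 (1.28, adjusted p = 0.073) or replicate 3 (1.38, adjusted p = 0.11). Over protein-coding isoforms the subunits were less alike, with a mean TPM of 1.35 for Sharpin, 6.9 for Rnf31 and 8.67 for Rbck1.

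All 5 genes of the last role were called higher, beside 15.1% of all genes tested and 27.2% of expressed protein-coding genes. Malt1 and Cflar kept the call under every alternative, and Bcl10, Ripk1 and Ripk2 did not. The call of these 3 was lost with reference genes from a mean TPM of 5 (levels of 0.85, 0.66 and 0.48) or a 4-fold band, and that of Bcl10 also over protein-coding isoforms (0.82). Malt1, the paracaspase that works with Bcl10, had the highest TPM of the 42, at 864, 399 and 578. Its partner Bcl10 had 40.5, 22.8 and 25.4. Malt1 exceeded Bcl10 by 4.34 ± 0.20 (SD, n = 3) in log2(TPM + 0.1), again without overlap, by 3.42 in the alignment-free table and by 2.99 over protein-coding isoforms. Cflar (cFLIP), which blocks caspase-8, had 391, 182 and 267. Each of these 3 genes was highest in replicate 1 and lowest in replicate 2.

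The RIP kinases were lower and less certain. Ripk1, the kinase at the branch between NF-κB and cell death, had a TPM of 34.6, 22.4 and 20.5. Ripk2, the kinase of NOD receptors, had 34.4, 12.8 and 24.7. Ripk1 was called at 1.85 ± 0.15 (SE; adjusted p = 0.0021) and Ripk2 at 1.67 ± 0.26 (SE; adjusted p = 0.034), by limma treat and in 3 of 3 libraries. The Ripk2 call was lost without replicate 1 (1.39, adjusted p = 0.17, limma treat) or without replicate 3 (1.57, adjusted p = 0.089).

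**Figure D3:**
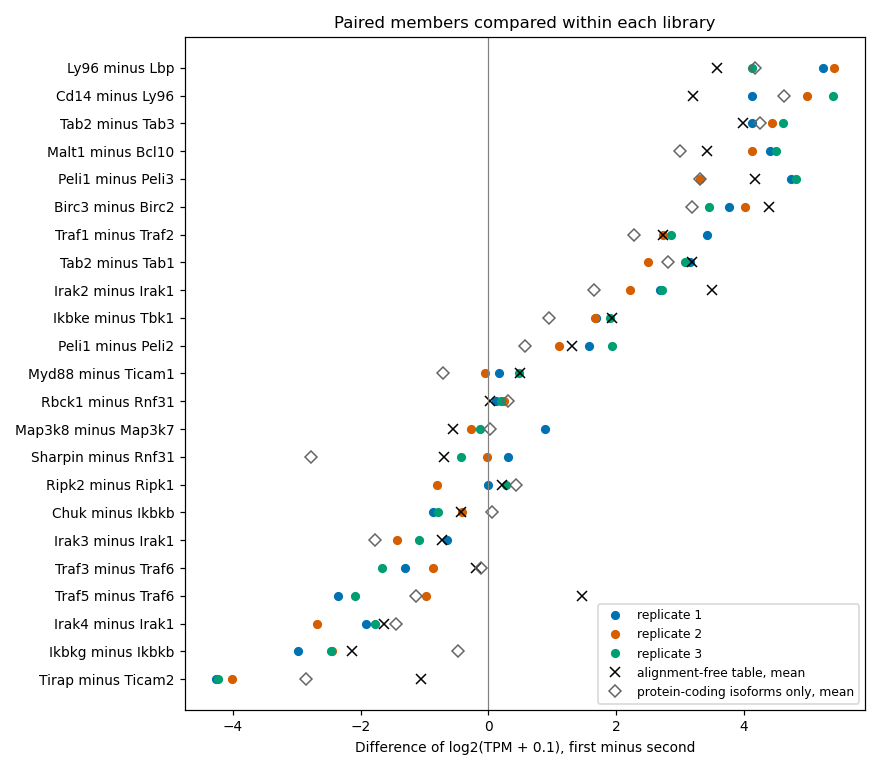
Within-library difference of log2(TPM + 0.1) for 23 pairs of paralogs or partners, first minus second; dots are the 3 libraries, crosses the mean of the alignment-free table and diamonds the mean over protein-coding isoforms. Dots of 19 pairs lie on 1 side of 0, and Traf5 minus Traf6 has its cross on the other side.

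Over the 23 pairs the difference had 1 sign in 3 of 3 libraries in 19, and 17 were more than 2-fold apart on the log2(TPM + 0.1) scale. With 3 libraries the exact sign-flip permutation test, two-sided, cannot go below p = 0.25, and the value adjusted over the 23 pairs was 0.303 for each pair with 1 sign. The test therefore cannot call any of them, and the sizes stand as descriptions. Pairs drawn from all genes were not compared, so these counts have no background. Member levels ran from a mean TPM of 0.153 to 614, with a median SD between libraries of 0.20 in log2 CPM. The counts thus describe differences in level and are not read as a trait of paralogs. Mixed signs were found for Myd88 and Ticam1, Map3k8 and Map3k7, Sharpin and Rnf31, and Ripk2 and Ripk1. For most of the 19 pairs with 1 sign the mean difference kept its sign in the alignment-free table and over protein-coding isoforms. Ikbke and Birc3 over their paralogs were among them. The exceptions were Traf5 and Traf6 in the alignment-free table, and Chuk and Ikbkb over protein-coding isoforms. Single libraries could differ from the mean. In replicate 2 Traf3 lay above Traf6 in the alignment-free table (TPM of 12.8 and 11.4) and over protein-coding isoforms (5.77 and 5.05). Rbck1 lay below Rnf31 in replicate 1 of the alignment-free table (25.1 and 26.8).

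Chromatin-bound RNA is known to hold transcripts still being spliced; unspliced RNA was not measured separately, but the annotation includes isoforms that keep an intron. The 42 members have 280 annotated isoforms, and the isoform with the highest mean TPM was protein-coding in 23 members, retained intron in 15 and processed transcript in 4. Types of leading isoforms were not counted over all genes, so these numbers have no background. For the 31 members with a retained-intron isoform, a coding isoform and a mean TPM from 1 upwards, the median retained-intron share of TPM was 47.7%. The median over 5826 such genes was 40.2%. By expected counts, which are not divided by length, the medians were 36.3% and 24.1%.

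**Figure D4:**
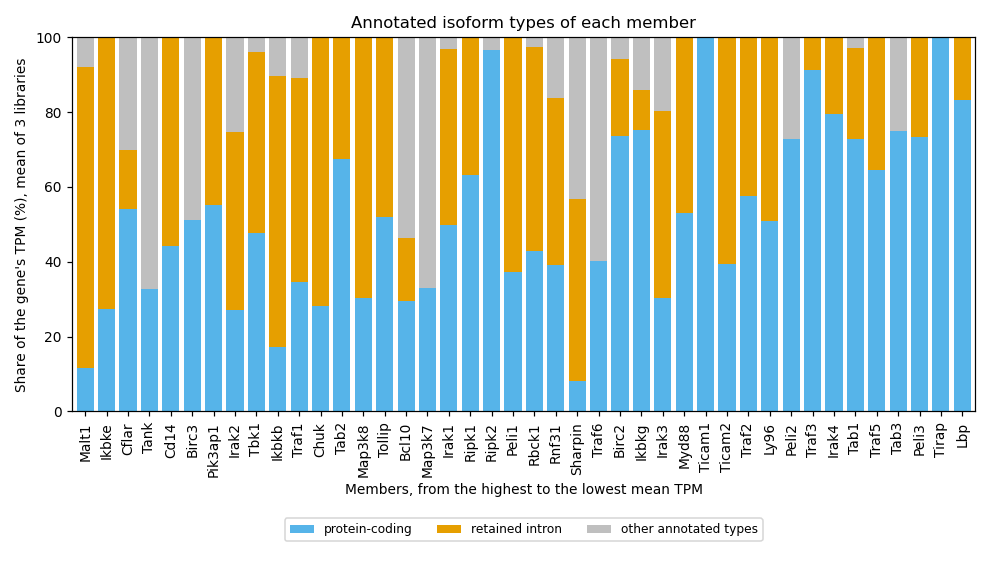
Share of each member's TPM, mean of 3 libraries, in protein-coding, retained-intron and other annotated isoforms, ordered by mean TPM. Malt1 reaches 80.4% retained intron, and Tank, Birc3 and Ripk2 have no isoform of that type.

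The share passed 50% in 10 members: Cd14, Ticam2, Peli1, Traf1, Map3k8, Chuk, Ikbkb, Ikbke, Rbck1 and Malt1. How many of the other genes with such isoforms passed 50% was not counted, so this number has no background. In alignment-based TPM Malt1 was highest at 83.5%, 77.7% and 80%, and Ikbke had 74.1%, 71% and 73%. Traf3 was lowest at 8.74% ± 1.3 (SD, n = 3). These ranks did not hold on other measures: in the alignment-free table Traf5 (92.7%) and Chuk (84.4%) lay above Malt1 (74.2%), and Ikbkg (8.08%) was below Traf3 (24.8%). By expected counts Sharpin (75.9%) was above Malt1 (74.3%) and Ikbkg (2.18%) below Traf3 (3%). The SD over libraries was 2.9 percentage points for Malt1 and 1.6 for Ikbke. Malt1 and Traf3 were picked as the highest and lowest of the 31 shares, so a gap between them follows from the choice. Of annotated isoforms 7 of 13 were retained intron in Malt1, 4 of 7 in Ikbke and 1 of 5 in Traf3. The part of these numbers in the shares was not tested. The annotation holds no retained-intron isoform for 9 members: Tirap, Ticam1, Peli2, Traf6, Map3k7, Tab3, Tank, Birc3 and Ripk2.

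Counting isoforms by type changed the order of the members. Malt1 had a mean TPM of 614 over every isoform and 69.1 over protein-coding isoforms, which moved it from rank 1 to rank 7 of the 42. The isoform with its highest TPM was Malt1-206, a retained-intron isoform of 556 bases, at 276, 95 and 161 on a mean of 1030 expected counts. Most of its reads fell on longer isoforms, with 8422 expected counts on Malt1-203 (6404 bases) and 8129 on Malt1-213 (3785 bases), both retained intron, and 5865 on the protein-coding Malt1-201. Cflar was first over protein-coding isoforms, at 214, 94.5 and 149, and Ikbke second, at 128, 116 and 113. TPM is per length, so a short isoform receives a high TPM from few reads.

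Ikbke had its 2 leading isoforms of the retained-intron type, Ikbke-207 (741 bases) at a mean TPM of 111 and Ikbke-205 (797 bases) at 94.0. The protein-coding Ikbke-201 followed at 87.4, 90.6 and 80.8. Tbk1 was led by its protein-coding isoform Tbk1-201, at 54.7, 55.7 and 54.6, with an SD of 0.622. Birc3-201, protein-coding, had 77.6, 48.6 and 65.2. The short processed transcript Birc3-206 (360 bases) varied more, at 89.8, 38.5 and 18.3. Tank was led by the processed transcripts Tank-207 and Tank-211, at mean TPM of 84.7 and 71.2, ahead of the protein-coding Tank-202 at 39.5. Cd14 was divided between Cd14-202, a single-exon isoform named retained intron, at 116 ± 21.7 (SD, n = 3), and the protein-coding Cd14-201 at 91.3 ± 7.9.

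Spread between libraries was measured on log2 CPM of expected counts, after TMM scaling, for the 41 members that passed the filter on low counts; Lbp did not. The median SD was 0.20, against 0.27 over 12931 genes. On this scale, which is not divided by length, Irak2 varied least, with an SD of 0.01, followed by Ikbke and Map3k7 at 0.04. Peli1 varied most at 0.91, ahead of Tank at 0.65, Ripk2 at 0.59, Peli2 at 0.57 and Traf5 at 0.54.

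**Figure D5:**
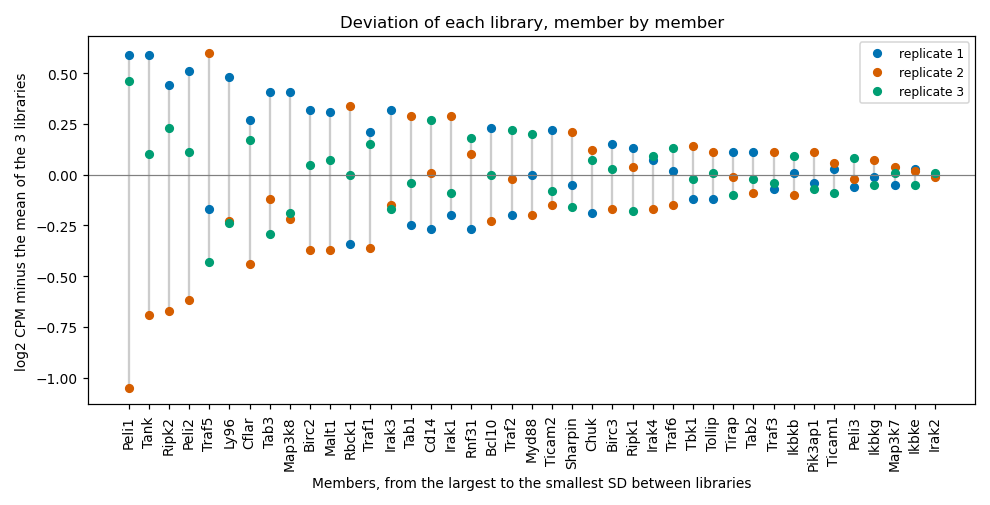
Deviation of each library's log2 CPM from the mean of the 3 libraries, for the 41 members that passed the filter, ordered by SD. Peli1, Tank, Ripk2 and Peli2 are lowest in replicate 2, and Traf5 is highest there.

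Peli1 deviated by 0.59, -1.05 and 0.46 log2 units in replicates 1, 2 and 3, and Tank by 0.59, -0.69 and 0.10. Ripk2 had 0.44, -0.67 and 0.23, and Peli2 0.51, -0.62 and 0.11. These 4 genes were each highest in replicate 1 and lowest in replicate 2. Over the 41 members the median deviation was 0.03, -0.02 and 0.01, with SDs over members of 0.25, 0.31 and 0.16, and over all genes it was between -0.00 and 0.02. Replicates 1, 2 and 3 held the lowest value of 12, 18 and 11 members and the highest of 19, 13 and 9. The same was not counted over all genes, so these numbers have no background. Replicate 2 had the least RNA at 250 ng and replicate 1 the most, and RNA input and replicate cannot be told apart.

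Overlapping genes limit some of these values, since the sources used here do not state whether counting used strand. An opposite-strand gene overlaps 14 members, and for 7 of these a protein-coding one does. Myd88 (mean TPM of 10.6) is overlapped by Acaa1a (19.6), Irak3 (12.8) by Tmbim4 (18.6), Irak4 (5.93) by Twf1 (8.82), Ripk1 (25.9) by Serpinb6a (16.3), Tirap (0.357) by Srpr (6.5) and Ikbkg (12.9) by G6pdx (4.7). In the other case, Traf3, the partner 4930595D18Rik had 0.08. Ikbke is crossed by the antisense genes Gm28914 and Gm28913, at 24.2 and 45.1. On the same strand the pseudogene 2610024D14Rik, at 41.6 ± 29.7 (SD, n = 3), overlaps Peli1 (20.3), the member that varied most. Gm43912 (35.9) overlaps Irak2, Irf9 (20.7) overlaps Rnf31, Gm49307 (6.29) overlaps Peli2 and Tmed7 (3.44) overlaps Ticam2. Reads of such partners cannot be told apart without strand or, on the same strand, without splice junctions.

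Around these 42 genes the rest of the pathway was read from lists, in the same fit. Of 12 Toll-like receptor genes 5 were called higher and 5 lower, beside 27.2% and 22.2% of expressed protein-coding genes. Tlr2, the receptor of lipopeptides, was first at 79.9, 32.5 and 46.4, and Tlr7, a receptor of single-stranded RNA, second at 54.5, 27.4 and 29.2, while Tlr11 and Tlr12 were last at mean TPM of 0.0133 and 0.00667. Tlr4 itself, named here for its role and outside the naming rule, had a TPM of 6.31, 5.63 and 4.65, in neither class. It lay below Ly96, its subunit, and below Cd14 in every library.

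The MAP kinase arm, 18 genes, had 6 called higher and 3 lower, shares near the 27.2% and 22.2% of expressed protein-coding genes. Mapkapk2, the kinase below p38 that stabilises cytokine mRNA, led at 295, 139 and 227, followed by Map2k3, an activator of p38, at 72.5, 90.6 and 79.3. Mapk11 and Mapk13, p38 isoforms, were lowest at mean TPM of 0.643 and 0.133. All 13 transcription factors at the end of the pathway were called higher, with a median level of 3.10 log2 units, from Nfkb1 (188, 125 and 181) and Nfkb2 (128, 145 and 154) down to Atf2 (21.5, 17.3 and 17.5) and Jun (21.5, 18.1 and 15.1). Of 20 deubiquitinases and other brakes 11 were called higher and 3 lower. Tnfaip3 (A20) led at 930, 622 and 742, followed by Nfkbia (IκBα) at 457, 409 and 401, and Dok1 and Sigirr were lowest at mean TPM of 0.997 and 0.123. Beside these lists, the 42 members had 22 called higher and a median level of 1.44, against 0.86 for the MAP kinase arm and 1.82 for the brakes.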

How the data were processed

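For each of the 3 libraries the authors deposited an alignment-based gene table and transcript table with expected counts, TPM and FPKM, and another transcript table, made without alignment, whose columns per the file headers are estimated counts and TPM. The deposited notes name assembly mm10 and annotation release M21. The names of the programs were not given in the sources used here, although the columns have the layout of RSEM and of kallisto. The deposited expected counts are fractional because reads that fit several transcripts were shared out, and they were rounded for count-based steps. TPM and FPKM as deposited by the authors are scaled to transcript length and to library size. The alignment-free TPM was summed per gene.

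Of the table entries 26345 name no annotated gene (tRNA, spike-in and phiX) and were left out of tests. They took 1.26%, 0.223% and 0.2% of expected counts in replicates 1, 2 and 3. Counting error alone limits a count of 0 to 3 counts, or 2.36e-05%, 1.64e-05% and 1.66e-05% of the total. Genes were fitted with limma 3.58.1 (treat, 2-fold, trended prior variance) in R 4.3.3 if their mean TPM reached 0.1 or they were on a list, with a pseudocount of 0.1, which understates differences near 0. Log2 CPM came from edgeR 4.0.16 (TMM, prior count 2, filterByExpr with a minimum count of 10). DESeq2 1.42.0 size factors served as an alternative. The edgeR alternative to the level test used a quasi-likelihood F statistic against each bound, because glmTreat needs a design of more than 1 column. The scripts were tested on simulated data.

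Members and lists were chosen with earlier results of these data known. All 42 members are accounted for; other genes are named as the 2 highest and 2 lowest of each pathway list, as markers at a mean TPM of at least 1, or because they overlap a member. Alternatives varied the pseudocount, filter, reference gene, fold, table, unit, scaling, test and libraries. Some marker genes are not reported here.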

Additional observations from a re-analysis of the deposited data

How the results depend on the processing

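Levels and calls were recomputed under 15 alternatives. Tbk1, Pik3ap1, Chuk, Cflar, Traf1, Ikbkb, Birc3, Malt1, Ikbke, Cd14, Irak2 and Tank were called higher in every one, and Lbp and Peli3 lower in every one that tested them. The call of 24 members changed in at least 1. The number called higher was 12 with reference genes from a mean TPM of 5 and 12 with a 4-fold band, against 22. Other settings raised it. With reference genes from a mean TPM of 0.1, 8 more were called higher: Myd88, Ticam1, Irak3, Peli1, Traf6, Ikbkg, Birc2 and Sharpin. The same genes were added without the 2-fold band, and Peli1, Ikbkg and Traf5 in the alignment-free table. It was 17 over protein-coding isoforms, an alternative chosen after seeing the data. The number called lower was 8 with the reference from a TPM of 5, and 1 with a filter at a mean TPM of 1, which removes the other 3 from the test. Leaving out a library gave 21 to 22 higher and 4 lower. Traf5 turned from -0.70 to 2.64 in the alignment-free table. The median member level was 1.33 with a pseudocount of 1, 1.67 with the filter at 1, 0.25 when the reference was taken from a TPM of 5 and 2.50 from 0.1, 1.89 in the alignment-free table, 1.53 in FPKM, 0.90 over protein-coding isoforms, 1.54 with edgeR and 1.37 to 1.60 with a library left out.

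The median SD was 0.27 on log2(TPM + 0.1) against the reference gene and 0.14 to 0.22 with a library left out. The median deviation was 0.09 and -0.04 in replicates 1 and 3 with alignment-free counts, and -0.05 in replicate 2 without the filter on low counts. On log2(TPM + 0.1) it was 0.16, -0.11 and -0.03 in replicates 1, 2 and 3. With a library left out it ran from 0.04 to 0.05, from -0.05 to -0.01 and from -0.04 to 0.01. The retained-intron share was 46.1% in the alignment-free table, 36.3% by expected counts and 45.3% to 48.6% with a library left out. The number of pairs with 1 sign was 19 to 21 in all settings, and the mean difference changed sign in 4 pairs (Map3k8 and Map3k7, Ripk2 and Ripk1, Sharpin and Rnf31, Traf5 and Traf6) under those settings. Over protein-coding isoforms Myd88 minus Ticam1 was -0.71 and Chuk minus Ikbkb 0.05, also of opposite sign. The causes were not tested. No paired analysis was possible because all libraries belong to 1 group and their numbers pair no groups; the gene pairs were compared within libraries. Lbp, at 5, 1 and 1 expected counts, and Tirap and Peli3, at 25 to 45, are limited by depth.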
